A study of Homo sapiens with 12 samples.

Results

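The 5 genes described here carry out or control heme breakdown: HMOX1 and HMOX2, which encode the heme oxygenases, BLVRA and BLVRB, which encode the biliverdin reductases, and BACH1, which encodes a heme-binding repressor of HMOX1. They were chosen by gene symbol, with the FPKM of HMOX1 in the 4 groups already known, from 56337 genes in the table, and all 5 had a mean of at least 1 FPKM. Transcripts were measured by sequencing polyadenylated RNA from HEK293T, an established line derived from human embryonic kidney and bearing the large T antigen of SV40. FAC+BafA1 cells were preincubated for 24 h with 0.1 mg/ml of the iron salt ferric ammonium citrate (FAC) and then treated for 24 h with bafilomycin A1 (BafA1, an inhibitor of the proton pump that acidifies lysosomes) at 10 nM. FAC cells had the iron salt without the inhibitor, BafA1 cells had the inhibitor without the iron salt, and control cells had neither. Each of the 4 groups had 3 libraries, and all were grown in the same serum-supplemented medium. Replicates carry numbers in the labels, with nothing on whether they were separate cultures, so errors and p-values measure the spread between these libraries, which may be technical.

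Heme oxygenases open the heme ring, which releases iron and carbon monoxide and leaves biliverdin, and biliverdin reductases turn biliverdin into bilirubin. HMOX1 is the inducible oxygenase and HMOX2 the constitutive one. BACH1 pairs with small MAF proteins on antioxidant response elements and represses HMOX1, while the activator NRF2 (gene NFE2L2) uses the same elements. Heme binds BACH1, releases it from DNA and promotes its degradation. The series asks, by its title, how lysosomal acidity serves iron supply and growth, and heme breakdown is a source of iron inside the cell.

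On GRCh38 with GENCODE release 44, HMOX1 lies at chr22:35380361-35394214 on the plus strand, HMOX2 at chr16:4474690-4510347 on the plus strand and BACH1 at chr21:29194071-29630751 on the plus strand. BLVRA lies at chr7:43758680-43807342 on the plus strand and BLVRB at chr19:40447765-40465764 on the minus strand. The exons of HMOX2 share 103 bases with NMRAL1, a gene on the opposite strand with 14.67 to 23.45 FPKM, and reads from those bases could not be told apart if counting ignored strand. No gene that overlaps BACH1 was above 0.55 FPKM in any library, nor was BLVRBP1, a pseudogene named after BLVRB.

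RefSeq promoter windows on GRCh38.p14, each from 250 bases before to 50 after a gene's start, were matched for HMOX2, BACH1, BLVRA and BLVRB. No window was available for HMOX1, so the motif search below does not cover it. A pair of windows is shown because BACH1 was the gene that was higher with BafA1 and HMOX2 was the most abundant, and because each holds letters known to bind stress-response factors. In the BACH1 window, 1 of 3 for that gene, at chr21:29298672-29298971 on the plus strand, capitals mark TGAGTCA at position -48 from the start, a match to the AP-1 motif TGANTCA. In the HMOX2 window, 1 of 2, at chr16:4474486-4474785 on the plus strand, capitals mark the E-box CACGTG at position -28 and the hypoxia response element core ACGTG at position -118, a core that the E-box also contains on both strands.
BACH1: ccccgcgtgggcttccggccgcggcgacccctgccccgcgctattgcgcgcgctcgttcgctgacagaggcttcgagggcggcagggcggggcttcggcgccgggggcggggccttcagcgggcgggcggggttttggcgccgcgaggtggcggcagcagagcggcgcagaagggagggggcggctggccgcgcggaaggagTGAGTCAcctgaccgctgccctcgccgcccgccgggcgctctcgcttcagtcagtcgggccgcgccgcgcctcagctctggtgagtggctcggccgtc
HMOX2: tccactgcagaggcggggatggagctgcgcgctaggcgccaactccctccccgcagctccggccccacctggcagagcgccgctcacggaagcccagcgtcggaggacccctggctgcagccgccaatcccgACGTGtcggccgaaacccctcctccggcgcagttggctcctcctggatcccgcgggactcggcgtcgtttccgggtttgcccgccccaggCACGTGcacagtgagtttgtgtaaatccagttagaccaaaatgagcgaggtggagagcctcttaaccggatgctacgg
Both strands of all windows were searched. Over 35116 RefSeq windows of this length, 7.7% held TGANTCA, 7.3% held CACGTG and 21.4% held ACGTG. The antioxidant response element core TGACNNNGC, held by 13.3% of windows, had no match in those of the 4 genes, and no other of these motifs was matched for BLVRA or BLVRB. The GC content was 77.7% in the BACH1 window and 66.7% in the HMOX2 window, against a median of 58.7% over all windows. These matches are descriptions of letters and no binding was measured.

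Across the libraries 13244 to 13597 genes reached 1 FPKM, and the depth, estimated from low values, was 34.4 to 37.9 M fragments. The summed FPKM of all genes was 600261 to 604483 in BafA1 libraries and 634935 to 651311 in the other 9. Its part in the results was examined only by refits with other scaling. The median log2 change of BafA1 relative to control over genes tested was -0.042 without scaling. It was 0 with median-of-ratios scaling and -0.013 with quantile normalization. The 6 libraries without FAC listed 304 genes at 0 that had 1 FPKM or more in each of the 6 with FAC, and 323 genes showed the opposite. None of the 5 heme breakdown genes was among them, and the part of this difference in comparisons across FAC was not tested. Of 8 genes set as HEK293T markers, 7 had a mean of at least 1 FPKM. All 8 summed to 747 to 752 FPKM in FAC+BafA1, 498 to 510 in FAC, 933 to 939 in BafA1 and 510 to 520 in control, led by VIM at 331.79 to 713.51 FPKM, and the part of this difference was not tested. Among cells that handle much heme, no macrophage marker of 5 and no hepatocyte marker of 4 reached that mean, with CD163 and SPIC listed at 0, and of 5 erythroid markers HBA1 did, at 0.83 to 2.84 FPKM, while HBB was listed at 0. Of 4 fibroblast markers COL1A1 reached it at 2.68 to 7.45 FPKM with COL1A2 at 0, and none of the 4 markers of HeLa cells or keratinocytes did. The erythroid markers summed to 1.84 to 2.38 FPKM in FAC+BafA1, 2.27 to 2.84 in FAC, 0.95 to 1.52 in BafA1 and 1.79 to 2.04 in control. The fibroblast markers summed to 5.62 to 8.25 FPKM in FAC+BafA1, 5 to 6.85 in FAC, 2.98 to 3.59 in BafA1 and 4.73 to 6.88 in control. Both sums were thus lowest in BafA1, and their part in the results was not tested.

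HMOX1 was highest with FAC alone and lowest with BafA1 alone. Its level was 11.65, 10.25 and 11.26 FPKM in FAC+BafA1 libraries, 44.23, 36.63 and 39.91 in FAC, 8.13, 7.93 and 7.86 in BafA1, and 21.31, 22.58 and 19.74 in control. No libraries of any pair of groups overlapped. The means were 11.05 ± 0.72, 40.26 ± 3.81, 7.97 ± 0.14 and 21.21 ± 1.42 FPKM in FAC+BafA1, FAC, BafA1 and control (SD, n = 3 each). In bulk RNA a lower level in every cell and a loss of the transcript from some of the cells cannot be told apart.

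HMOX2, the constitutive oxygenase, was the most abundant of the 5 genes in every group. It had 44.58, 50.33 and 52.77 FPKM in FAC+BafA1 libraries, 52.9, 50.06 and 53.95 in FAC, 35.42, 34.01 and 34.48 in BafA1, and 54.15, 55.22 and 55.01 in control. The BafA1 libraries were lowest, every FAC library was just below every control library, and FAC+BafA1 overlapped FAC only. The means were 49.23 ± 4.21, 52.3 ± 2.01, 34.64 ± 0.72 and 54.79 ± 0.57 FPKM in the same order of groups.

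BACH1, the repressor, was highest with BafA1 alone, where each of the 4 enzyme genes was lowest. Its level was 12.83, 13.29 and 13.1 FPKM in FAC+BafA1 libraries, 9.58, 10.08 and 11 in FAC, 20.94, 21.91 and 20.34 in BafA1, and 10.98, 10.14 and 9.93 in control. BafA1 was highest, FAC+BafA1 came next without overlap, and FAC and control overlapped. The means were 13.07 ± 0.23 in FAC+BafA1, 10.22 ± 0.72 in FAC, 21.06 ± 0.79 in BafA1 and 10.35 ± 0.56 FPKM in control.

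BLVRA, which reduces the biliverdin isomer that heme oxygenases make, was lowest with BafA1 alone. It had 30.9, 31.59 and 31.02 FPKM in FAC+BafA1 libraries, 36.39, 36.17 and 34.27 in FAC, 18.4, 19.24 and 19.88 in BafA1, and 39.72, 39.24 and 34.84 in control. FAC+BafA1 lay between BafA1 and the overlapping FAC and control libraries. The means were 31.17 ± 0.37 FPKM in FAC+BafA1, 35.61 ± 1.17 in FAC, 19.17 ± 0.74 in BafA1 and 37.93 ± 2.69 in control.

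BLVRB, a reductase of another biliverdin isomer and of flavins, was lowest with BafA1 alone by a small margin. Its level was 20.3, 20.2 and 21.45 FPKM in FAC+BafA1 libraries, 22.72, 22.65 and 18.23 in FAC, 16.03, 16.77 and 13.45 in BafA1, and 20.43, 22.77 and 20.61 in control. The BafA1 libraries stood below the others, and the other 3 groups overlapped. Its means were 20.65 ± 0.69 FPKM in FAC+BafA1, 21.2 ± 2.57 in FAC, 15.42 ± 1.74 in BafA1 and 21.27 ± 1.3 in control.

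**Figure D1:**
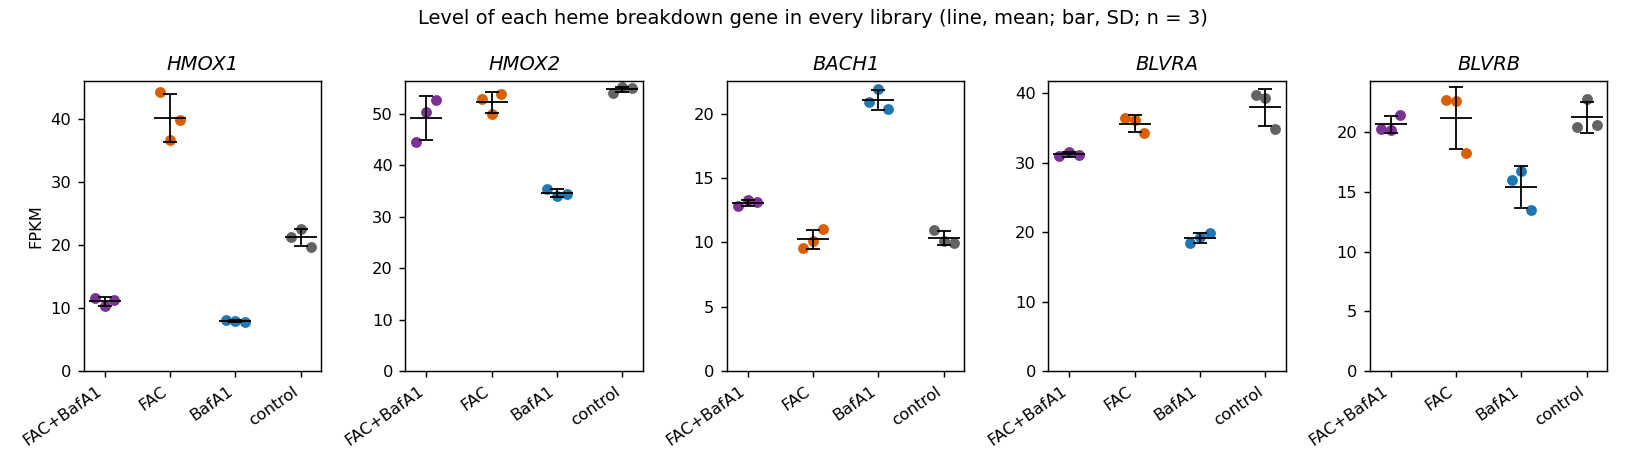
FPKM of each heme breakdown gene (vertical axes, from 0, a scale per gene) in every library of the 4 groups (horizontal axis); points are libraries, lines are means and bars are SDs, n = 3. HMOX1 was near 40 FPKM in FAC and near 8 in BafA1, BACH1 was highest in BafA1, and HMOX2, BLVRA and BLVRB were lowest in BafA1.

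FPKM is scaled to transcript length, so levels of different genes can be set beside each other. In FAC+BafA1 the order from high to low was HMOX2, BLVRA, BLVRB, BACH1 and HMOX1. FAC had the order HMOX2, HMOX1, BLVRA, BLVRB and BACH1. BafA1 had HMOX2, BACH1, BLVRA, BLVRB and HMOX1, so that the transcript of the repressor stood above that of its target. Protein levels and the activity of the repressor cannot be read from these values. Control had HMOX2, BLVRA, BLVRB, HMOX1 and BACH1, and there the libraries of BLVRB and HMOX1 overlapped. No other neighbours in these orders overlapped.

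HMOX1 made up a smaller share of heme oxygenase transcripts with BafA1 and a larger one with FAC. Its percentage of HMOX1 plus HMOX2 FPKM was 20.7%, 16.9% and 17.6% in FAC+BafA1 libraries, 45.5%, 42.3% and 42.5% in FAC, 18.7%, 18.9% and 18.6% in BafA1, and 28.2%, 29.0% and 26.4% in control. The FAC+BafA1 and BafA1 libraries overlapped on this measure, and FAC stood apart above control. The ratio of HMOX1 to BACH1 FPKM separated all 4 groups, as HMOX1 did by itself. It was 0.846 ± 0.07 in FAC+BafA1, 3.96 ± 0.57 in FAC, 0.379 ± 0.01 in BafA1 and 2.05 ± 0.16 in control (SD, n = 3 each).

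**Figure D2:**
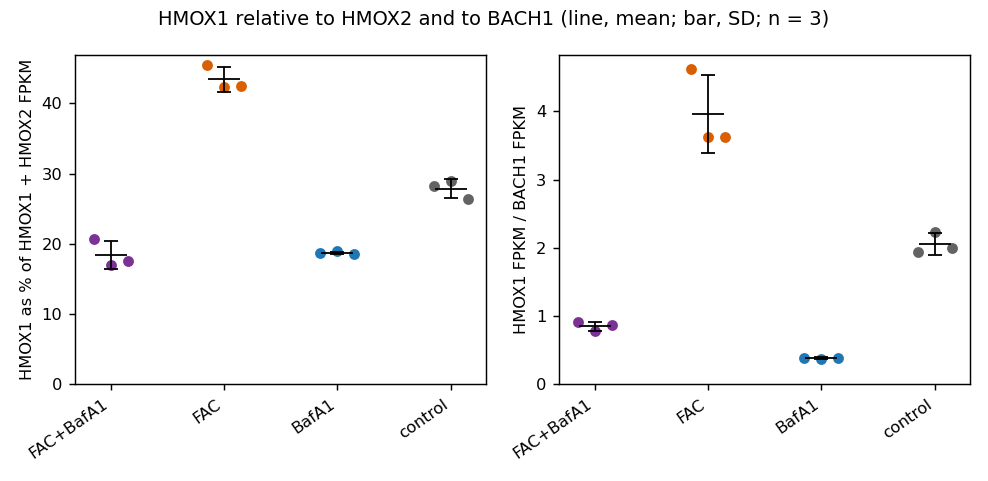
HMOX1 as a percentage of HMOX1 plus HMOX2 FPKM (left vertical axis) and HMOX1 FPKM divided by BACH1 FPKM (right vertical axis) in every library of the 4 groups; points are libraries, lines are means and bars are SDs, n = 3. On the left FAC+BafA1 and BafA1 both lie below 21% and FAC above 42%; on the right BafA1 lies below 0.4 and FAC above 3.6.

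The changes below are differences of log2(FPKM + 1), each with its limma standard error. No p-value is given for the 5 genes, since they were picked with these values known. For all other genes named, the limma p-value was adjusted by the Benjamini-Hochberg method over the 13682 genes tested, and a gene was called at an adjusted p under 0.05. The lists of those genes were also written with earlier results of these data known, and some genes were named after their values were seen. Their p-values do not account for that choice.

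With BafA1 relative to control, BACH1 was higher and both oxygenases and both reductases were lower. HMOX1 was 2.66-fold lower (log2 change -1.31 ± 0.07) and BLVRA 1.98-fold lower (-0.95 ± 0.05). HMOX2 was 1.58-fold lower (-0.65 ± 0.05) and BLVRB 1.38-fold lower (-0.44 ± 0.09). BACH1 was 2.04-fold higher (0.96 ± 0.06). All 3 BafA1 libraries lay above all 3 control libraries for BACH1, as for 30.4% of genes tested, and below them for the other 4, as for 38.3%. HMOX1 had the 58th lowest change of 11569 protein-coding genes tested and BACH1 the 378th highest. Over all 13682 genes tested, HMOX1 was 73rd lowest and BACH1 455th highest.

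With FAC relative to control, HMOX1 was 1.9-fold higher, a log2 change of 0.89 ± 0.07. It ranked 60th highest among protein-coding genes and 558th highest of all 13682 tested. Genes above it in the second rank may include some of the 304 listed at 0 without FAC and at 1 FPKM or more with it. Their part in that rank was not tested. Every FAC library was above every control library for HMOX1, as for 9.88% of genes tested. HMOX2 lay below control in every FAC library, as did 10.5% of genes, by a log2 change of -0.07 ± 0.05. BACH1 (-0.02 ± 0.06), BLVRA (-0.09 ± 0.05) and BLVRB (-0.01 ± 0.09) had overlapping libraries.

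Given after FAC, BafA1 again went with a lower HMOX1, while the other 4 genes differed from FAC by 1.28-fold or less. HMOX1 was 3.64-fold lower in FAC+BafA1 than in FAC, a log2 change of -1.77 ± 0.07, which was the lowest of the 11569 protein-coding genes and the 3rd lowest of all 13682 tested. BLVRA was 1.14-fold lower (-0.19 ± 0.05) and BACH1 1.28-fold higher (0.33 ± 0.06). All FAC+BafA1 libraries lay below all FAC libraries for HMOX1 and BLVRA, as for 18.1% of genes tested, and above them for BACH1, as for 18.8%. HMOX2 (-0.09 ± 0.05) and BLVRB (-0.03 ± 0.09) overlapped between the groups.

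FAC before BafA1 was accompanied by levels nearer to control for all 5 genes than BafA1 alone was. FAC+BafA1 libraries lay above BafA1 libraries for HMOX1 (0.42 ± 0.07), HMOX2 (0.49 ± 0.05), BLVRA (0.67 ± 0.05) and BLVRB (0.4 ± 0.09), as for 40.4% of genes tested, and below them for BACH1 (-0.65 ± 0.06), as for 30.8%. HMOX1 stood at 52.1% of control in FAC+BafA1 and at 37.6% in BafA1. The same percentages of control were 89.8% and 63.2% for HMOX2, 82.2% and 50.5% for BLVRA, 97.1% and 72.5% for BLVRB, and 126% and 204% for BACH1. Set against control, FAC+BafA1 libraries were all above for BACH1 (0.31 ± 0.06), as for 22.7% of genes, and all below for HMOX1 (-0.88 ± 0.07), HMOX2 (-0.16 ± 0.05) and BLVRA (-0.27 ± 0.05), as for 23.3%, and BLVRB (-0.04 ± 0.09) overlapped.

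The BafA1 change was larger with FAC than without for HMOX1 and smaller for the other 4 genes. The log2 change with FAC divided by that without was 1.36 for HMOX1, 0.137 for HMOX2, 0.343 for BACH1, 0.197 for BLVRA and 0.0673 for BLVRB. The difference between the changes was -0.47 ± 0.1 for HMOX1, 0.56 ± 0.07 for HMOX2, -0.63 ± 0.08 for BACH1, 0.76 ± 0.07 for BLVRA and 0.41 ± 0.13 for BLVRB on the log2 scale. That of HMOX1 ranked 1130th lowest of 11569 protein-coding genes and 1405th lowest of 13682 genes tested. Among 294 genes that BafA1 without FAC lowered by at least 1 log2 unit at an adjusted p under 0.05, the median ratio was 0.185 and HMOX1 was the single gene with a ratio above 1. These genes were chosen by the divisor of the ratio, and HMOX1 with its values known, so this is a description and not a test. Over all 9180 genes called for BafA1 in either direction, the median was 0.175 and 259 genes (2.82%) were above 1. In 20 other settings of the fit the ratio of HMOX1 was 1.31 to 1.43. Without FAC replicate 2 there were 2 such genes, and in the other settings HMOX1 alone.

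**Figure D3:**
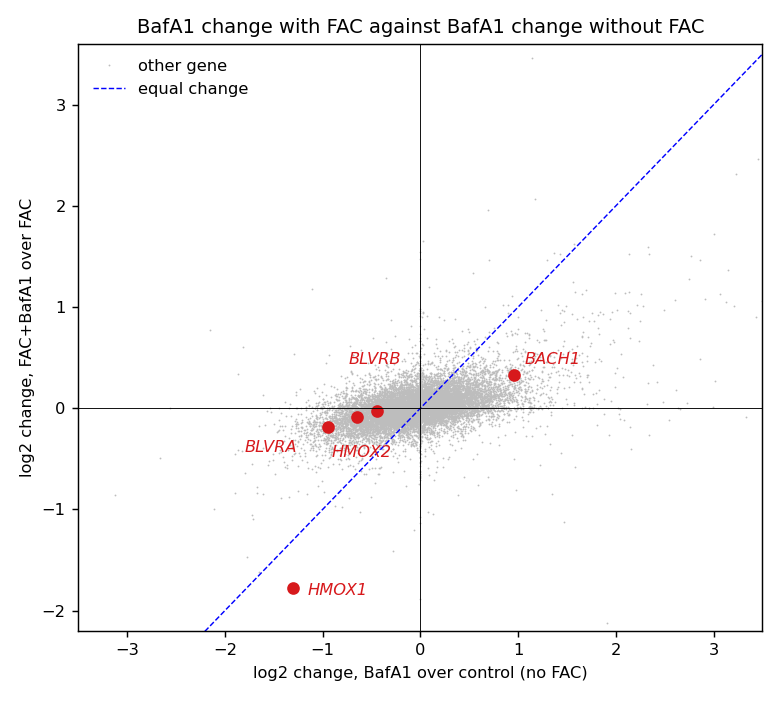
The log2 change of FAC+BafA1 over FAC (vertical axis) against that of BafA1 over control (horizontal axis) for 13675 genes, with 7 genes beyond the axes; grey points are genes, red points the heme breakdown genes, and the dashed line marks equal changes. HMOX1 lies below the dashed line at -1.77 with FAC and -1.31 without, and the other 4 red points lie nearer to a vertical value of 0.

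BACH1 and NRF2 act with partners, and the small MAF genes rose with BafA1 whether or not FAC had been given. In a list of 13 genes of this network, 12 of them tested, 5 rose and 5 fell in BafA1 relative to control, beside 29.5% and 37.6% of all genes, with a median of 0.11 on the log2 scale beside -0.04 over all genes. MAFF, a small MAF, had 12.82, 13.31 and 11.09 FPKM in BafA1 libraries, against 0.41, 0.44 and 0.49 in control, a rise of 3.21 ± 0.1 (limma adjusted p = 9.93e-11). Only through its BafA1 libraries did MAFF reach the mean of 1 FPKM needed for testing. It was under 1 FPKM in every control and FAC library, so its p-values here and below carry that selection. MAFG rose by 1.67 ± 0.05 (adjusted p = 4.96e-11) and MAFK by 1.43 ± 0.06 (adjusted p = 7.18e-10). BACH2, a relative of BACH1, rose by 0.9 ± 0.09 (adjusted p = 3.09e-06) and NFE2L2 by 0.64 ± 0.06 (adjusted p = 7.66e-07). The genes that fell were NFE2L3, a relative of NRF2, at -1.11 ± 0.1 (adjusted p = 1.43e-06), RBX1 at -0.61 ± 0.04 (adjusted p = 1.7e-07), KEAP1 at -0.4 ± 0.05 (adjusted p = 2.17e-05), CUL3 at -0.39 ± 0.04 (adjusted p = 2.91e-06) and FBXO22 at -0.12 ± 0.05 (adjusted p = 0.0342). KEAP1, CUL3 and RBX1 form the ligase that marks NRF2 for degradation, and FBXO22 is part of a ligase that does so for BACH1.

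Between FAC+BafA1 and FAC, 4 genes of the network rose and 2 fell, beside 9.76% and 9.49% of all genes, with medians of -0.07 in the list and 0 over all genes. MAFF had 2.2, 2.27 and 1.61 FPKM in FAC+BafA1 libraries, against 0.57, 0.47 and 0.45 in FAC, a rise of 1.01 ± 0.1 (limma adjusted p = 3.16e-05). MAFG had 16.09, 16.43 and 15.41 FPKM in FAC+BafA1, against 8.35, 7.94 and 7.88 in FAC (0.91 ± 0.05, adjusted p = 1.47e-07), and MAFK rose by 0.94 ± 0.06 (adjusted p = 4.9e-07). BACH2 rose by 0.36 ± 0.09 (adjusted p = 0.0188), KEAP1 fell with a change of -0.18 ± 0.05 (adjusted p = 0.0308) and CUL3 with -0.14 ± 0.04 (adjusted p = 0.0307). NFE2L2 was not called here (0.08, adjusted p = 0.337). The count of called genes in this list was 3 without FAC replicate 1, without FAC+BafA1 replicate 2, and with no filter on low values. Under these 3 settings MAFF, MAFG and MAFK kept their calls, and BACH2, CUL3 and KEAP1 were not called. KEAP1 was also not called without FAC replicate 2 or FAC+BafA1 replicate 3, or with these groups fitted alone (limma adjusted p over the alternatives, 0.0166 to 0.105).

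In FAC relative to control 1 of 12 network genes tested was called, near the share of all genes, of which 4.72% rose and 4.84% fell. This was MAFG, which rose by 0.24 ± 0.05 (limma adjusted p = 0.00295), and none fell (0 also at an unadjusted limma p under 0.05). Shares of all genes in comparisons across FAC, here and below, may include genes listed at 0 in every library with FAC or in every library without it. The part of those genes in the shares was not tested. MAFF (0.05, adjusted p = 0.897), MAFK (0.05, adjusted p = 0.764), NFE2L2 (0.03, adjusted p = 0.869) and KEAP1 (0.18, adjusted p = 0.0521) were not called, though KEAP1 was without BafA1 replicate 2 or 3 or FAC replicate 3, with no filter on low values and with median-of-ratios scaling, each of which gave 2 called genes in the list (adjusted p over the alternatives, 0.0174 to 0.198). Relative to BafA1, FAC+BafA1 had 4 network genes that rose and 6 that fell, beside 38.8% and 29.1% of all genes. The largest of these changes were -2.15 ± 0.1 for MAFF (adjusted p = 1.55e-09) and 0.89 ± 0.1 for NFE2L3 (adjusted p = 9.8e-06). MAFG (-0.52, adjusted p = 7.95e-07), MAFK (-0.44, adjusted p = 2.04e-05) and NFE2L2 (-0.52, adjusted p = 4.31e-06) fell, and KEAP1 rose by 0.39 (adjusted p = 2.16e-05). The BafA1 change with FAC minus that without was called higher for 4 network genes and lower for 6, beside 29.5% and 20.6% of all genes.

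Genes that BACH1 and NRF2 both act on, other than HMOX1, did not move as a block. Of 14 tested in a list of 15, 8 fell and 4 rose in BafA1 relative to control, beside 37.6% and 29.5% of all genes, with a median of -0.34 beside -0.04 over all genes. PIR, which encodes an iron-binding nuclear protein, fell with 6.82, 9.18 and 8.3 FPKM in BafA1 libraries, against 20.52, 23.68 and 21.83 in control (-1.34 ± 0.09, limma adjusted p = 8.81e-08). PRDX1, a peroxiredoxin, changed by -1.19 ± 0.03 (adjusted p = 1.05e-11), NQO1, a quinone reductase, by -1.03 ± 0.08 (adjusted p = 1.94e-07), and GCLM, a subunit of the enzyme that starts glutathione synthesis, by -1.01 ± 0.06 (adjusted p = 3.91e-08). SLC7A11, the cystine transporter, which is also a target of the amino acid response, rose by 2.16 ± 0.05 (adjusted p = 1.46e-11).

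In FAC+BafA1 relative to FAC, 5 of these targets fell and 4 rose, beside 9.49% and 9.76% of all genes, with a median of -0.04 beside 0. PIR (-0.87 ± 0.09, limma adjusted p = 5.68e-05), GCLM (-0.72 ± 0.06, adjusted p = 1.25e-05) and NQO1 (-0.59 ± 0.08, adjusted p = 0.000317) fell here too, by less than the -1.77 of HMOX1. SLC7A11 had 6.22, 6.6 and 6.42 FPKM in FAC+BafA1 libraries, against 9.06, 8.13 and 9.3 in FAC, and so fell (-0.41 ± 0.05, adjusted p = 0.00029). SQSTM1, an autophagy receptor, rose by 0.5 ± 0.03 (adjusted p = 2e-06). With FAC relative to control, 4 targets rose and none fell, beside 4.72% and 4.84% of all genes, with 1 lower at an unadjusted limma p under 0.05. FTL, the ferritin light chain, had the largest rise, 0.3 ± 0.04 (adjusted p = 0.000102), before SLC7A11, ME1 and SQSTM1, while NQO1 (0.13, adjusted p = 0.468) and GCLM (0.21, adjusted p = 0.0633) were not called. Without control replicate 1 GCLM was called higher (adjusted p = 0.0132). In FAC+BafA1 relative to BafA1, 10 rose and 2 fell, beside 38.8% and 29.1% of all genes, led by PRDX1 (1.02 ± 0.03, adjusted p = 9.05e-12) and SLC7A11 (-2.28 ± 0.05, adjusted p = 2.18e-12), and NQO1 (0.57, adjusted p = 3.27e-05) and GCLM (0.49, adjusted p = 1.97e-05) rose.

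**Figure D4:**
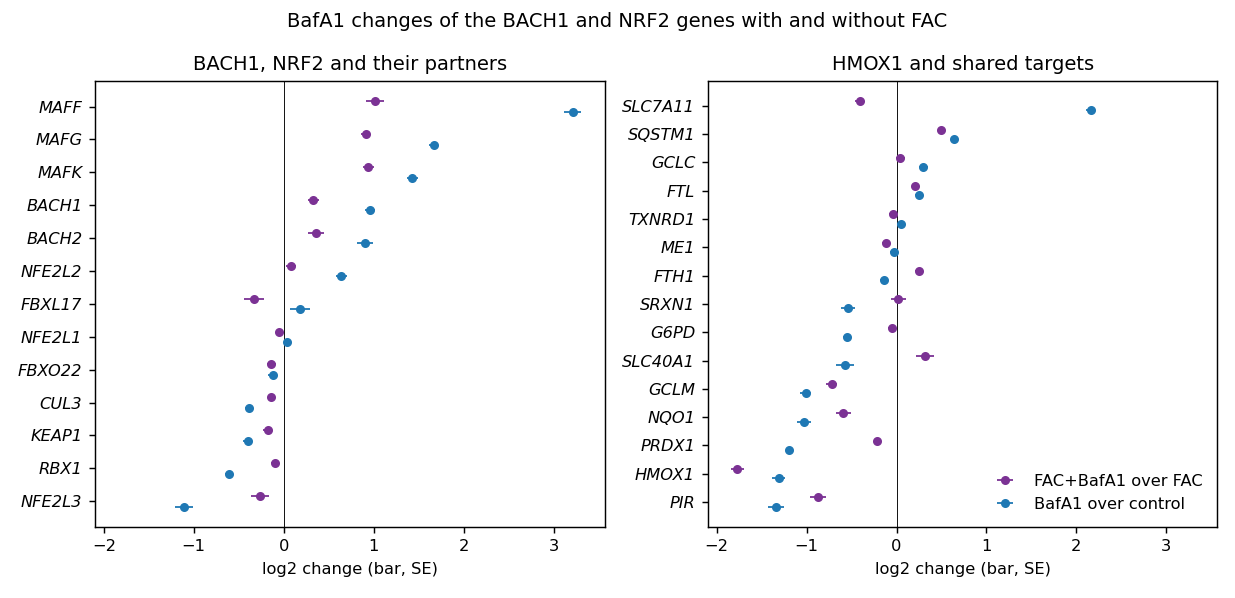
Log2 changes of FAC+BafA1 over FAC (purple) and of BafA1 over control (blue) for BACH1, NRF2 (NFE2L2) and their partners (left) and for HMOX1 and shared targets (right); horizontal axes are log2 changes and bars are limma standard errors. MAFF, MAFG, MAFK and BACH1 lie right of 0 in both comparisons, PIR, NQO1, GCLM and HMOX1 lie left of 0 in both, and SLC7A11 changes side.

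Heme synthesis, which feeds the substrate, held called genes in both directions with BafA1. Of 13 genes tested in a list of 14, 7 fell and 2 rose in BafA1 relative to control, beside 37.6% and 29.5% of all genes, with a median of -0.2 beside -0.04 over all genes. ALAS1, the rate-limiting first enzyme, had 57.42, 57.63 and 54.54 FPKM in BafA1 libraries, against 26.5, 29.44 and 29.78 in control, a rise of 0.96 ± 0.04 (limma adjusted p = 2.62e-09). UROS, a mid-pathway enzyme, changed by -0.63 ± 0.05 (adjusted p = 3.92e-07) and FECH, which inserts the iron, by -0.43 ± 0.04 (adjusted p = 3.32e-06). In FAC+BafA1 relative to FAC, 1 rose and 3 fell, beside 9.76% and 9.49% of all genes, with a median of -0.06 beside 0. These were ALAS1 (0.3 ± 0.04, adjusted p = 0.000681), CLPX, a chaperone that acts on the ALAS enzymes (-0.28 ± 0.06, adjusted p = 0.00476), TMEM14C (-0.22 ± 0.06, adjusted p = 0.0233) and FECH (-0.14 ± 0.04, adjusted p = 0.047). The call of FECH was lost under 14 of 20 alternatives (adjusted p 0.0193 to 0.153), among them each that left out a FAC or control library, BafA1 replicate 2 or 3, or FAC+BafA1 replicate 2 or 3, and the list held 2 calls without FAC replicate 2 or 3, with no filter on low values, and with these groups fitted alone. FAC relative to control moved none of these genes by limma, beside 4.72% of all genes higher and 4.84% lower, and 0 at an unadjusted p under 0.05 (ALAS1 -0.01, adjusted p = 0.954, and FECH 0.05, adjusted p = 0.664). In FAC+BafA1 relative to BafA1, 5 rose, led by UROS (0.5, adjusted p = 2.89e-06) and with FECH (0.34, adjusted p = 2.22e-05), and 3 fell, led by ALAS1 (-0.67, adjusted p = 4.37e-08), beside 38.8% and 29.1% of all genes.

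Heme carriers and binding proteins fell with BafA1 where they were called. Of 9 tested in a list of 12, 6 fell and none rose in BafA1 relative to control by limma (0 rose at an unadjusted p under 0.05), beside 37.6% and 29.5% of all genes, with a median of -0.22 beside -0.04 over all genes. HEBP2, a heme-binding protein, had 32.84, 35.35 and 36.35 FPKM in BafA1 libraries, against 68.34, 66.36 and 59.07 in control (-0.87 ± 0.06, limma adjusted p = 8.67e-08). SLC48A1, which carries heme out of lysosomes, changed by -0.22 ± 0.07 (adjusted p = 0.00989, and 0.134 after quantile normalization, under which 3 genes of the list were called) and FLVCR1, a heme exporter, by -0.24 (adjusted p = 0.00693). In FAC+BafA1 relative to FAC, 2 fell and none rose (1 rose at an unadjusted limma p under 0.05), beside 9.49% and 9.76% of all genes. These were LRP1, the receptor of the heme-hemopexin complex (-0.43, adjusted p = 0.0154) and HEBP2 (-0.24, adjusted p = 0.0144). The list held 1 call without FAC+BafA1 replicate 2 or 3, with no filter on low values and at a mean of at least 5 FPKM, and 0 without FAC replicate 3. SLC48A1 (-0.08, adjusted p = 0.479) and FLVCR1 (0.01, adjusted p = 0.94) were not called. FAC relative to control moved none by limma, beside 4.72% of all genes higher and 4.84% lower (2 were higher at an unadjusted p under 0.05, and 1 gene was called without FAC replicate 1 and with no intensity trend), with SLC48A1 at 0.17 (adjusted p = 0.208) and FLVCR1 at 0.03 (adjusted p = 0.897). In FAC+BafA1 relative to BafA1, 5 rose and none fell (0 fell at an unadjusted p under 0.05), beside 38.8% and 29.1% of all genes, led by HEBP2 (0.6, adjusted p = 2.14e-06), with SLC48A1 (0.31, adjusted p = 0.0011) and FLVCR1 (0.29, adjusted p = 0.00227).

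Of 6 genes that supply electrons to heme oxygenase or dispose of bilirubin, POR and ABCC1 reached the mean needed for testing. POR, the reductase that gives heme oxygenases their electrons, fell in BafA1 relative to control (-0.5 ± 0.07, limma adjusted p = 4.62e-05) and was higher in FAC+BafA1 than in BafA1 (0.44, adjusted p = 0.000132). It was not called in FAC relative to control (-0.05, adjusted p = 0.822) or in FAC+BafA1 relative to FAC (-0.01, adjusted p = 0.98). ABCC1, an export pump, rose by 0.2 ± 0.07 in BafA1 relative to control (adjusted p = 0.0225), and the list held 1 call instead of 2 without control or BafA1 replicate 1 or 2, with no filter on low values, and with these groups fitted alone. UGT1A1, which conjugates bilirubin, and the uptake carriers SLCO1B1 and SLCO1B3 were listed at 0 in every library.

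Over 12703 tested genes with a regular symbol, the genes nearest to HMOX1 in pattern were ranked by root mean square distance between the 4 centred group means of log2(FPKM + 1). The median distance was 0.84. The 8 nearest were ALDH1A2 and the pseudogene MRPS36P1 at 0.33, MAP2K6 and HIST1H4K at 0.34, RUNX1T1 at 0.35, PIR at 0.36, the small nucleolar RNA SNORD19C at 0.37 and the antisense RNA ZNF503-AS2 at 0.39. In FAC relative to control they changed by -0.05 to 0.64 on the log2 scale, against 0.89 for HMOX1, and in FAC+BafA1 relative to FAC by -1.62 to -0.84, against -1.77 for HMOX1. The -1.62 belonged to SNORD19C, whose mean FPKM was 19.68 in FAC+BafA1 and 28.67 in FAC, a smaller difference than its log2 change. The next largest fall was -1.1, for MAP2K6. ALDH1A2, which makes retinoic acid, averaged 14.31 FPKM in FAC+BafA1, 30.86 in FAC, 8.47 in BafA1 and 30.29 in control, so it resembled HMOX1 in the BafA1 changes but not with FAC alone.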

How the data were processed

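The authors deposited FPKM (fragments scaled to transcript length and library depth) per gene, with 2 decimals, for 12 HEK293T libraries. Polyadenylated RNA was sequenced with a stranded kit, per the labels' protocols. STAR, RSEM and GRCh38 were used, per the submitters' processing notes; the notes give no versions, annotation, filters or strand setting, all not given in the sources used here. Among 56340 entries, 3 repeated an ID and were dropped, and gene names matched 56104 of 56337 IDs.

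Values were taken as log2(FPKM + 1) without further scaling, and 13682 genes averaging 1 FPKM or more were kept, 11569 of them protein coding in GENCODE 44. A single limma model (version 3.58.1, under R 4.3.3) covered the 12 libraries, with an intensity trend and Benjamini-Hochberg adjustment. The fit gave 6 comparisons, including the BafA1 change with FAC minus that without. The log2 scale with a pseudocount understates changes of low genes, whereas folds divide mean FPKM. The code was tested on simulated data.

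The 5 genes, 5 lists and all tests were chosen with earlier results of these data known. Named genes were the 5 genes, 12 list genes in every comparison, the largest rise and fall called per list, the 8 genes nearest to HMOX1 and overlapping genes; RBX1, CUL3, FBXO22, BACH2, TMEM14C, ME1, UGT1A1, SLCO1B1 and SLCO1B3 were added to account for small counts after their values were seen. Depth was estimated from the steps of low FPKM, of which 52.4% to 55.0% without FAC and 63.5% to 67.1% with FAC lay within 0.2 of whole fragments, so it is approximate, and no count test was run. Alternatives were pseudocount, filters, scaling, trend, replicate block, 2 groups fitted alone, and leaving out each library.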

Additional observations from a re-analysis of the deposited data

Results flagged for a closer look

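The BafA1 change differed with and without FAC, by the test of the difference itself (limma, Benjamini-Hochberg over all genes tested), for 11 of the 12 list genes followed in every comparison. The values are the log2 change of BafA1 with FAC minus that without. They were negative for MAFF (-2.2, adjusted p = 2.15e-07), MAFG (-0.76, adjusted p = 2.37e-06), ALAS1 (-0.66, adjusted p = 4.72e-06), NFE2L2 (-0.55, adjusted p = 0.000122) and MAFK (-0.49, adjusted p = 0.000304), which rose less or, for NFE2L2, were not called with FAC. They were positive for POR (0.49, adjusted p = 0.00145), NQO1 (0.44, adjusted p = 0.00563), FECH (0.29, adjusted p = 0.00241), GCLM (0.28, adjusted p = 0.0189), FLVCR1 (0.26, adjusted p = 0.0419) and KEAP1 (0.22, adjusted p = 0.0237). Over the alternatives the adjusted p reached 0.124 for FLVCR1, 0.105 for KEAP1 and 0.064 for GCLM. Of 13682 genes tested, 6850 were called for this difference.

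HMOX2 lay below control in every FAC library (log2 change -0.07 ± 0.05), as did 10.5% of genes tested. It lay above BafA1 in every FAC+BafA1 library (0.49 ± 0.05), as did 40.4% of genes tested. The difference between these changes was 0.56 ± 0.07 on the log2 scale (limma standard error), and no p-value is given for it because HMOX2 was chosen with these values known, so it was not tested.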

How the results depend on the processing

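The direction of every change of HMOX1, HMOX2 and BLVRA was kept in all alternatives, while for BACH1 in FAC relative to control it was kept in 18 of 20, and for BLVRB in 17 of 20 for FAC relative to control, 18 for FAC+BafA1 relative to FAC and 19 for FAC+BafA1 relative to control. HMOX1 ranged from -1.85 to -1.7 for FAC+BafA1 relative to FAC and from -1.4 to -1.25 for BafA1 relative to control, the lowest, -1.40, with a pseudocount of 0.1. With median-of-ratios scaling, HMOX2 changed by -0.58 in BafA1 relative to control. Under it FAC+BafA1 relative to BafA1 was -0.71 for BACH1 and 0.61 for BLVRA, and the BafA1 change with FAC minus that without was -0.70 for BACH1 and 0.69 for BLVRA. With no filter, 4486 genes were called in FAC relative to control and 7643 in FAC+BafA1 relative to control, against 1308 and 4498 with the filter, and at a mean of at least 5 FPKM, 402 were called in FAC relative to control; these settings change the number of genes tested, and the cause of the other shifts was not tested. Leaving out each library gave 1840 to 2646 genes for FAC+BafA1 relative to FAC and kept HMOX1 at 17.2% to 19.1%, 42.4% to 44%, 18.6% to 18.8% and 27.3% to 28.6% of heme oxygenase FPKM in FAC+BafA1, FAC, BafA1 and control. Counts of called genes within lists moved by over 1.5 times in 23 of 360 values that left out a library and in 14 of 235 others. Replicate numbers did not pair the libraries: same-numbered libraries correlated at -0.074 to 0.138 and others at -0.15 to 0.116 in their deviations from group means. With the replicate block 9082, 1298, 9212, 2366, 4287 and 6702 genes were called in BafA1 relative to control, FAC relative to control, FAC+BafA1 relative to BafA1, to FAC and to control, and the difference of BafA1 changes, against 9180, 1308, 9294, 2634, 4498 and 6850 without it; it ended the calls of FECH in FAC+BafA1 relative to FAC (adjusted p = 0.0762) and of FLVCR1 in the difference of BafA1 changes (adjusted p = 0.0613). Depth is known from estimates only, so no counting interval is given.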

Other observations

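Summed over both genes, heme oxygenase FPKM was 60.3 ± 3.91 in FAC+BafA1, 92.6 ± 5.34 in FAC, 42.6 ± 0.84 in BafA1 and 76.0 ± 1.6 in control (SD, n = 3 each). The summed biliverdin reductase FPKM was 51.8 ± 0.64, 56.8 ± 3.74, 34.6 ± 1.35 and 59.2 ± 3.38 in the same order of groups. The ratio of oxygenase to reductase FPKM was therefore 1.16 ± 0.06 in FAC+BafA1, 1.63 ± 0.16 in FAC, 1.23 ± 0.06 in BafA1 and 1.28 ± 0.06 in control. Its FAC libraries (1.64, 1.47 and 1.79) lay above every other library. The FAC+BafA1 libraries (1.1, 1.17 and 1.22) all lay below the control libraries (1.25, 1.25 and 1.35), and the BafA1 libraries (1.26, 1.16 and 1.27) overlapped both. BLVRA made up 60.2 ± 0.97% of reductase FPKM in FAC+BafA1, 62.8 ± 2.17% in FAC, 55.5 ± 3.58% in BafA1 and 64.0 ± 1.72% in control, with 1 BafA1 library, at 59.6%, within the range of FAC+BafA1.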
